A study of Homo sapiens with 5 samples.

Results

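The genes described here are members of the TGF-beta, activin and BMP signalling pathway, measured by RNA-seq in TOV21G cells. A list of 47 gene symbols was drawn up by pathway role (ligands, receptors, extracellular inhibitors, the LTBP family, SMADs, intracellular inhibitors and targets). It was chosen with earlier results of these data known, so shares of members beside those of all genes are descriptive only. Of these symbols, 46 were found among the 30476 Ensembl genes of the count table, and the remaining member, FST, was not analysed here. In all, 36 of the 46 averaged 100 or more normalized counts over the libraries, and 10 averaged less. Normalized counts are estimated read counts per gene divided by a size factor for each library.

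Ligands of the family bind pairs of type I and type II serine/threonine kinase receptors. Receptors for TGF-beta and activin phosphorylate SMAD2 and SMAD3, whereas receptors for BMPs phosphorylate SMAD1, SMAD5 and SMAD9. The phosphorylated SMADs join SMAD4, enter the nucleus and act on targets such as the ID genes, which encode inhibitors of basic helix-loop-helix factors, and SMAD6 and SMAD7, which feed back to dampen the signal. TGF-beta is secreted in a latent form, which most LTBP proteins tether to the extracellular matrix until proteases, integrins or thrombospondin release it.

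TOV21G is a long-established human cell line from an ovarian clear cell carcinoma. Its ARID1A gene is mutated, and all libraries share that mutation. Parental cells gave 1 library. Cells resistant to the EZH2 inhibitor GSK126 (EZH2 inhibitor-resistant, EIR) had been selected by exposure to 5, 10, 15 and then 20 uM GSK126, and EIR clones 3 and 4 were each profiled without treatment and with GSK126, which gave 4 libraries. How much GSK126 the treated cultures received, and for how long, the labels do not say. Each EIR line is 1 clone and each library was the only one of its clone and treatment, so p-values measure the spread between these libraries and not between independent selections. The spread between parental libraries could not be measured. A change in the share of cells that express a gene and a change in RNA per cell cannot be told apart in such bulk libraries.

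Total estimated counts ranged from 25479238 to 30764963 per library. Markers of the labelled tumour type were present, with PAX8, a transcription factor of Mullerian epithelium, and the keratin genes KRT8 and KRT18 at 3083 normalized counts or more in every library, while EPCAM, an epithelial adhesion molecule, was at 0 and 1.06 in the clone 4 libraries and between 394 and 492 elsewhere. Summed markers of leukocytes lay at 36.3 normalized counts in parental cells and between 23.4 and 42.3 in EIR cells, those of endothelium at 9.06 against 13.9 to 21.2, those of fibroblasts at 98.7 against 49.8 to 142, and those of erythroid cells at 1.98 or less. EIR libraries also differed from the parental library with the GC content of transcripts. The median log2 ratio of EIR to parental cells was 0.51 for genes with a GC content below 40% and -0.49 for genes above 60%. The members called higher in EIR cells had a median GC content of 45.7% and those called lower 62.5%, so each of these calls is given with its value after a correction for GC content.

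Promoters are shown for the members on which the results below turn. INHBA and LTBP1 were abundant in clone 3 and nearly absent from the other cells, and SKIL and SMAD7 encode inhibitors whose level was higher in every EIR library than in parental cells. Each sequence is the 250 bases before the most upstream RefSeq start of the gene (GRCh38.p14), read on the strand of the gene. Capitals mark matches to 6 motifs searched on both strands: GTCTAGAC, the palindromic SMAD site; CAGAC, the short SMAD site; GGCGCC, bound by BMP-responsive SMADs; TGACGTCA, the cyclic AMP response element; TGACTCA, the AP-1 site; and TATAAA, the TATA box. None of the capital stretches below overlap.
INHBA (chr7:41703091-41703340, minus strand): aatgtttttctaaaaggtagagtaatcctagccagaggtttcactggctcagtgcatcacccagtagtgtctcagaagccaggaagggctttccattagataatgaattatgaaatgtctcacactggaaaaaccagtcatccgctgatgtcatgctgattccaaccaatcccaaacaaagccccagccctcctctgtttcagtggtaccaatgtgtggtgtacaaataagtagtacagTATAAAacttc
LTBP1 (chr2:32946703-32946952, plus strand): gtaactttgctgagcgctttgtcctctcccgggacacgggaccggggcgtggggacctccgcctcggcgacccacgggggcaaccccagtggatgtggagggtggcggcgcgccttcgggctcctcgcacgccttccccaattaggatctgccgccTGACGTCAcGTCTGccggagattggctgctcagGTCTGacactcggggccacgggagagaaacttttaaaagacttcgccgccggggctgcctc
SKIL (chr3:170357465-170357714, plus strand): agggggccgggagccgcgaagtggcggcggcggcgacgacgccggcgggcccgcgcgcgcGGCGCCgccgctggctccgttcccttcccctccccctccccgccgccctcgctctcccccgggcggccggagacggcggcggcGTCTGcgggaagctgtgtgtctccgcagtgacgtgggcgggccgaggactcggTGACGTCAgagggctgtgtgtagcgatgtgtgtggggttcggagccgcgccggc
SMAD7 (chr18:48950966-48951215, minus strand): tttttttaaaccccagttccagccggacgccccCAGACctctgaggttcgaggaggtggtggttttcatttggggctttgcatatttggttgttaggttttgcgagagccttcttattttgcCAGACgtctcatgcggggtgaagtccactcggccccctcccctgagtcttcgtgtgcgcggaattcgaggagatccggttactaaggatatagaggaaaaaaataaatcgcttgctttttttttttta
SMAD6 (chr15:66702206-66702235, plus strand, 30 bases only): ccgcggagccgccaaagtGTCTAGACtggc

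The INHBA promoter held a TATA box 11 bases before the start and no SMAD motif. The LTBP1 and SKIL promoters each held a cyclic AMP response element, 94 and 54 bases before the start, a motif found in 1.65% of 35116 promoters of this length, and they were the only members to hold it among the 43 with a RefSeq start. Short SMAD sites stood 85 and 61 bases before the LTBP1 start, 107 bases before that of SKIL, and 217 and 128 bases before that of SMAD7. Short sites occurred in 14 of the 43 members and in 38% of all promoters, and the BMP-type GGCGCC in 14 members and in 16.4% of all promoters. The full palindrome was present in 0.182% of promoters and, among the members, in SMAD6 alone, 12 bases before its start. A match is a stretch of letters and was not tested as a binding site.

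**Figure D1:**
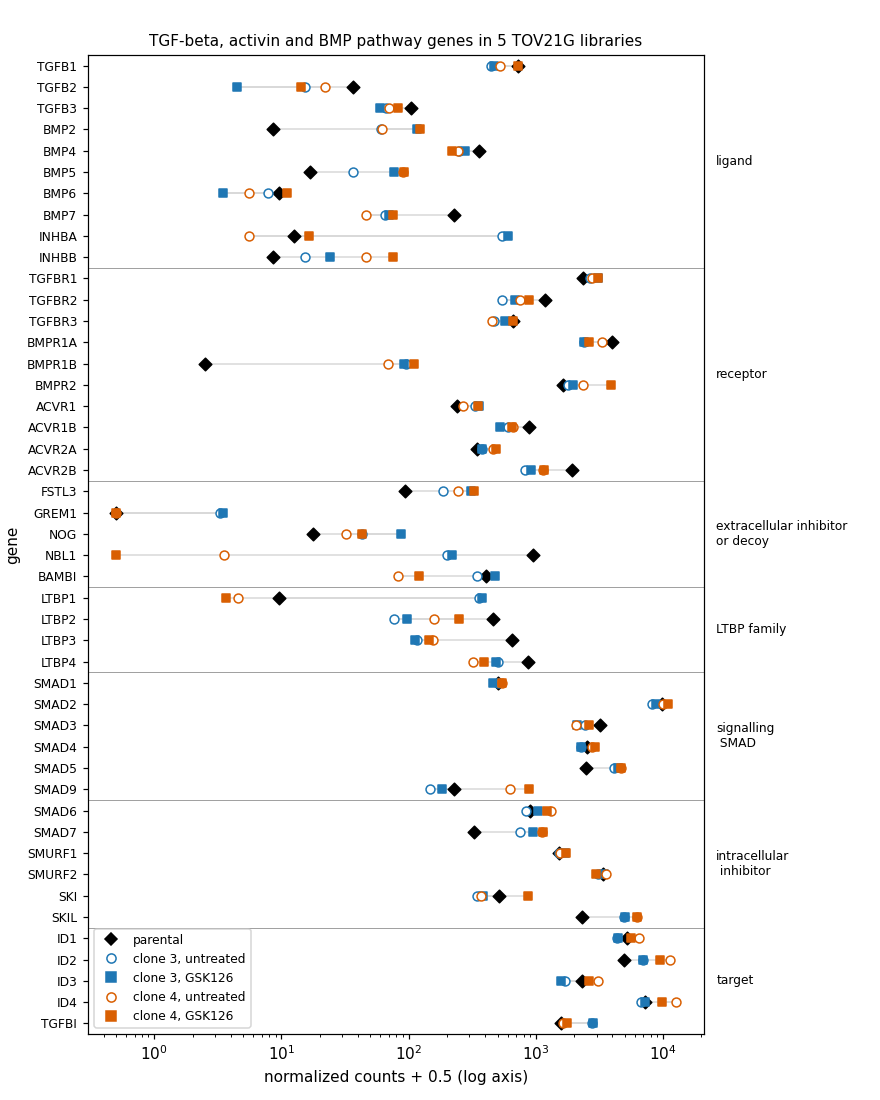
Normalized counts (plus 0.5, log axis) of the 46 members in each of the 5 libraries, ordered by role; diamonds are parental cells, open symbols untreated and filled squares GSK126-treated clones, clone 3 in blue and clone 4 in orange. BMPR1B and BMP2 lie far to the right of the parental diamond in all 4 EIR libraries, whereas INHBA and LTBP1 do so in clone 3 alone. NBL1 lies to the left of the diamond in all 4 EIR libraries and is nearly absent from clone 4 alone.

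The first comparison asked which pathway genes differed between EIR and parental cells. Of the members called, those with the largest rises were a BMP receptor and 2 BMP ligands. BMPR1B rose from 2 parental counts, within the floor of 3 counts, so the size of its rise is uncertain. BMP2 rose 11-fold in the mean of the EIR libraries, and BMP5 rose 4.49-fold. SMAD7, SKIL and FSTL3, which dampen signalling at different steps, also rose, as did SMAD5. BMP7, the activin receptor ACVR2B and 3 of the 4 LTBP genes fell. With DESeq2 (adjusted p under 0.05 over all genes tested), 12 of 44 members were called, 7 higher and 5 lower. Over all 16288 genes tested, 25.5% were called, 12.4% higher and 13.2% lower, so the share of members called was near that of all genes. With the libraries of each clone summed, so that 2 clones were compared with parental cells, DESeq2 called 8 of 44 members, 6 higher and 2 lower, beside 12.2% of all genes, and BMP5, ACVR2B, LTBP2 and LTBP4 lost their calls (DESeq2 adjusted p = 0.115, 0.0604, 0.0785 and 0.0984). The median log2 fold change was 0.02 over the members and 0.0025 over all genes. Among the 36 members averaging at least 100 normalized counts, the parental library lay outside the range of the EIR libraries for 22 (61.1%), against 72.5% of all genes at that level.

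Of the 10 ligand genes, BMP2 and BMP5 rose and BMP7 fell. BMP2, a ligand that signals through BMPR1A and BMPR1B, had 8.06 normalized counts in parental cells, 60.2 and 61.0 in untreated clones 3 and 4, and 116 and 122 in treated clones 3 and 4. The 4 EIR libraries were thus all well above the parental library, and the treated libraries lay above the untreated ones. The log2 fold change was 3.47 ± 0.79 (SE, DESeq2 adjusted p = 0.000158), and the ratio of 11 had a 95% counting interval from 5.53 to 25.7 that rests on 8 parental counts. After GC correction it was 3.68. BMP5, another BMP ligand, had 16.1 normalized counts in parental cells, 36.1 and 90.5 in untreated clones 3 and 4, and 76.1 and 91.0 in the treated clones. All EIR values exceeded the parental value, and untreated clone 3 was the lowest of them. For BMP5 the log2 fold change was 2.19 ± 0.74 (DESeq2 adjusted p = 0.0159) and 1.54 after GC correction, where the adjusted p was 0.127.

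BMP7, an osteogenic and renal BMP, stood at 227 normalized counts in parental cells against 64.8 and 45.8 in untreated and 69.2 and 75.1 in treated clones 3 and 4. All 4 EIR values lay far below the parental value. The fold change was -1.83 ± 0.43 on the log2 scale (DESeq2 adjusted p = 0.000268), and -1.43 after GC correction (adjusted p = 0.00622). TGFB1, the most studied TGF-beta ligand, was not called, with 726 normalized counts in parental cells, 439.8 and 522 in the untreated clones and 471 and 722 in the treated clones. Treated clone 4 matched the parental level and the other EIR libraries were lower (log2 fold change -0.43 ± 0.35, DESeq2 adjusted p = 0.393, and 0.06 after GC correction). TGFB1 overlaps HNRNPUL1, CCDC97 and TMEM91 on the opposite strand, and the strand setting of the counting is unknown.

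Among the 10 receptor genes, BMPR1B rose and ACVR2B fell. BMPR1B, a type I BMP receptor located at chr4:95679106-96079599 in hg19, was close to absent from parental cells, with 2.01 normalized counts from 2 estimated reads. That level is within the floor of 3 counts. Untreated clones 3 and 4 had 95.4 and 68.2, and treated clones 3 and 4 had 91.9 and 109. All EIR libraries held the transcript at a similar level, whatever the clone. This corresponds to a log2 fold change of 5.50 ± 1.11 (DESeq2 adjusted p = 1.43e-05) and 5.44 after GC correction. The ratio of EIR to parental cells, 45.2, is imprecise, with a 95% counting interval from 12.4 to 375. ACVR2B, a type II receptor for activins, had 1919 normalized counts in parental cells, 820.3 and 1137 in the untreated clones and 912 and 1167 in the treated clones. It was below the parental level in every EIR library (log2 fold change -0.93 ± 0.28, DESeq2 adjusted p = 0.00640), but the fold change of -0.62 after GC correction did not pass the test (adjusted p = 0.141).

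The receptors of TGF-beta itself were not called. TGFBR1, the type I receptor, had 2338 normalized counts in parental cells, 2642 and 2755 in untreated clones 3 and 4, and 3086 and 3102 in the treated clones (log2 fold change 0.31 ± 0.19, DESeq2 adjusted p = 0.227, and -0.13 after GC correction). Its EIR values all lay slightly above the parental value, and the direction turned with the GC correction. TGFBR2, the type II receptor, had 1178 in parental cells, 541 and 751 in untreated and 688 and 889 in treated clones. It was lower than in parental cells in all 4 EIR libraries, without passing the test (log2 fold change -0.72 ± 0.32, DESeq2 adjusted p = 0.0842).

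FSTL3, a secreted protein that binds and neutralizes activins, had 93.7 normalized counts in parental cells, 184 and 244 in the untreated clones and 310.3 and 327 in the treated clones. The log2 fold change of 1.51 ± 0.43 passed the test (DESeq2 adjusted p = 0.00366) and was 2.0 after GC correction, although edgeR's quasi-likelihood test gave an adjusted p of 0.0720. Every EIR library was above the parental library. The other extracellular inhibitors measured were not called between EIR and parental cells. Among them, NBL1 was below the parental value in every EIR library, with a wide spread between the clones (log2 fold change -3.17 ± 3.40, DESeq2 adjusted p = 0.543).

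In the LTBP family, 3 of 4 genes were lower in EIR cells. LTBP3, a latent TGF-beta binding protein, had 644 normalized counts in parental cells, 117 and 154 in untreated clones 3 and 4, and 112 and 145 in treated clones 3 and 4. The EIR values were close to each other and the highest was far below the parental value. Its log2 fold change was -2.29 ± 0.32 (DESeq2 adjusted p = 4.2e-11) and -1.77 after GC correction (adjusted p = 2.5e-05). LTBP4 had 866 normalized counts in parental cells and between 321 and 501 in EIR cells, and LTBP2 had 463 in parental cells and between 76.8 and 248 in EIR cells. Neither range reached the parental value. Their log2 fold changes of -1.02 ± 0.33 and -1.68 ± 0.66 passed the test (DESeq2 adjusted p = 0.0108 and 0.0434), but after GC correction they were -0.54 and -1.21 and did not (adjusted p = 0.178 and 0.224). All 3 genes have a GC content above 60%. LTBP2 differs from the rest of the family in that it does not bind latent TGF-beta.

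Of the 6 signalling SMADs, SMAD5 alone rose. This transducer of BMP signals had 2469 normalized counts in parental cells, 4082 and 4683 in untreated clones 3 and 4, and 4432 and 4686 in the treated clones. The EIR libraries were tightly grouped above the parental library (log2 fold change 0.86 ± 0.17, DESeq2 adjusted p = 7.61e-06), and the GC correction left the value at 0.86. SMAD2, SMAD3 and SMAD4 were not called. SMAD2 had 9886 normalized counts in parental cells, 8128 and 9925 in the untreated clones and 8761 and 10993 in the treated clones. SMAD3 had 3186 in parental cells, 2456 and 2058 in untreated and 2119.8 and 2634 in treated clones. For SMAD4, the partner of all signalling SMADs, the values were 2517, then 2264 and 2762, then 2278 and 2924 in the same order. SMAD3 was below the parental value in every EIR library, whereas SMAD2 and SMAD4 were below it in clone 3 and above it in clone 4. Fitted log2 fold changes were -0.06 for SMAD2, -0.46 for SMAD3 and 0.02 for SMAD4 (DESeq2 adjusted p = 0.875, 0.116 and 0.959).

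Among the 6 intracellular inhibitors, SMAD7 and SKIL rose. SMAD7, an inhibitory SMAD that blocks receptors and recruits ubiquitin ligases to them, had 328 normalized counts in parental cells, 753 and 1116 in untreated clones 3 and 4, and 941 and 1147 in treated clones 3 and 4. All EIR libraries held more than 2 times the parental level. Its log2 fold change was 1.59 ± 0.31 (DESeq2 adjusted p = 8.63e-06) and 1.92 after GC correction. SKIL, a co-repressor that binds SMADs on DNA, had 2285 normalized counts in parental cells, 4959 and 6238 in untreated and 5025 and 6234 in treated clones. The clones did not overlap, with clone 4 above clone 3 and both above parental cells (log2 fold change 1.30 ± 0.23, DESeq2 adjusted p = 5.73e-07). With a low GC content of 37.5%, SKIL moved to 0.76 after GC correction (adjusted p = 0.0122). The 5 target genes were not called in this comparison.

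**Figure D2:**
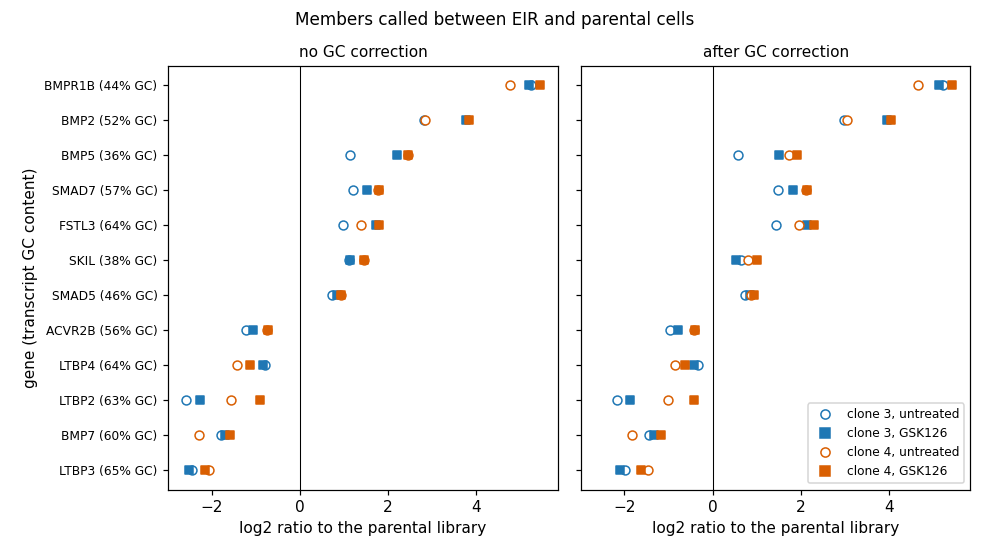
Log2 ratio of each EIR library to the parental library (pseudocount 0.5) for the 12 members called in EIR against parental cells, before (left) and after (right) correction for transcript GC content, which stands beside each gene; symbols are single libraries. Every point stays on its side of zero in both panels, and the fall of LTBP3 goes from -2.29 to -1.77 and the rise of SKIL from 1.30 to 0.76 in the fitted values.

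With edgeR's quasi-likelihood test (11.1% of all genes called, in either direction), 7 of the 12 members were called, namely LTBP3, SKIL, SMAD5, SMAD7, BMPR1B, BMP2 and BMP7. With the GC correction in DESeq2 (19.4% of all genes called), the same 7 and FSTL3 passed, and the members then split into 7 higher and 3 lower, since ID2 and BMPR1A also passed, beside 10.2% and 9.21% of all genes. LTBP2 lost its call without untreated clone 3, untreated clone 4 or treated clone 3 (DESeq2 adjusted p = 0.0610, 0.0662 and 0.0852), and BMP5 without untreated clone 4, treated clone 3 or treated clone 4 (0.0633, 0.0646 and 0.0620).

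The second comparison asked how the EIR clones differed from each other, with treatment as a covariate. INHBA and LTBP1 were expressed in clone 3 and nearly absent from clone 4, and BAMBI and TGFBI were lower in clone 4. NBL1 was below the parental level in clone 3 and nearly absent from clone 4. SMAD9, LTBP2, BMPR2 and the target genes ID2, ID3 and ID4 were higher in clone 4. In all, 11 of 45 members were called by DESeq2, 6 higher and 5 lower in clone 4, where 9.83% of all 17695 genes tested were called, 3.31% higher and 6.52% lower. The median log2 fold change was 0.30 over the members and -0.0034 over all genes. Among members averaging at least 100 normalized counts, both clone 4 libraries lay above both clone 3 libraries for 21 of 36 (58.3%), against 27.8% of all genes at that level. The reverse order held for 7 of 36 (19.4%), so that the clones did not overlap for 28 (77.8%). For the reverse order and for any lack of overlap, the share over all genes was not computed. These shares were not tested, since the members were chosen with earlier results of these data known. LTBP2 was the only member called in both comparisons.

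INHBA, at chr7:41706766-41745432 in hg19, encodes the subunit of activin A. It had 12.1 normalized counts in parental cells, 543 in untreated and 605 in treated clone 3, but 5.09 in untreated and 15.9 in treated clone 4. Clone 3 stood apart from all other cells, with 55.3 times the level of clone 4 (95% counting interval 35.6 to 90.8) and 47.4 times that of parental cells (27.0 to 92.0). The log2 fold change of clone 4 against clone 3 was -5.85 ± 0.48 (DESeq2 adjusted p = 4.07e-32). LTBP1, which tethers latent TGF-beta to the matrix and lies at chr2:33172020-33624576, followed the same order. It had 9.06 normalized counts in parental cells, 358 and 376 in untreated and treated clone 3, and 4.07 and 3.17 in untreated and treated clone 4. The level in clone 3 was 101 times that in clone 4 (48.8 to 252) and 40.4 times that in parental cells (21.2 to 88.8), with a log2 fold change of -6.67 ± 0.66 (DESeq2 adjusted p = 5.64e-22). LTBP1 thus moved against LTBP2, LTBP3 and LTBP4, which were below the parental level in clone 3.

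NBL1, a secreted BMP antagonist of the DAN family at chr1:19923473-19984949, had 949.8 normalized counts in parental cells, 201 and 219 in untreated and treated clone 3, and 3.05 and 0 in untreated and treated clone 4. Clone 4 held 3 estimated reads in both libraries together, which is within the floor of 3 counts. The parental level was 4.53 times that of clone 3 (4.04 to 5.08), and clone 3 was 135 times clone 4 (45.8 to 657). The log2 fold change of -7.62 ± 1.78 (DESeq2 adjusted p = 0.000427) depends on the fit at such low counts. NBL1 overlaps the readthrough gene MICOS10-NBL1 on the same strand, and the counting may have divided reads between them. The sum of NBL1 and the readthrough gene kept the order, with 1014 normalized counts in parental cells, 287 and 310 in untreated and treated clone 3, and 72.2 and 23.3 in clone 4. BAMBI, a decoy receptor without a kinase domain, had 407 normalized counts in parental cells, 345 and 478 in clone 3, and 82.4 and 121 in clone 4. Clone 3 was near the parental level and clone 4 below it (log2 fold change -2.03 ± 0.33, DESeq2 adjusted p = 2.63e-08).

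SMAD9, a transducer of BMP signals also called SMAD8, showed the largest rise in clone 4 of any member called. It had 226 normalized counts in parental cells, 146 and 184 in untreated and treated clone 3, and 628 and 876 in untreated and treated clone 4. Clone 3 lay below the parental level and clone 4 above it (log2 fold change of clone 4 against clone 3 2.17 ± 0.27, DESeq2 adjusted p = 3.43e-14). BMPR2, the type II BMP receptor, had 1645 normalized counts in parental cells, 1781 and 1971 in clone 3, and 2352 and 3889 in clone 4. Treated clone 4 was the highest by a wide margin (log2 fold change 0.68 ± 0.20, DESeq2 adjusted p = 0.00934). LTBP2, which fell in EIR cells, had 76.8 and 95.9 normalized counts in untreated and treated clone 3, and 157 and 248 in clone 4. Clone 4 was thus between clone 3 and parental cells (log2 fold change 1.19 ± 0.41, DESeq2 adjusted p = 0.0390).

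Of the 4 ID genes, classical targets of BMP signalling, 3 were higher in clone 4. ID2 had 4904 normalized counts in parental cells, 6993 and 6905 in untreated and treated clone 3, and 11328 and 9476 in untreated and treated clone 4. ID3 had 2319 in parental cells, 1693 and 1569 in clone 3, and 3066 and 2602 in clone 4. ID4 had 7159 in parental cells, 6722 and 7165 in clone 3, and 12648 and 9854 in clone 4. The clones did not overlap for any of these genes, which follows largely from their choice by the test between the same libraries. Clone 4 lay wholly above clone 3 for 27.8% of all genes averaging at least 100 normalized counts. Untreated clone 4 was the highest library for each of ID2, ID3 and ID4. The log2 fold changes were 0.57 ± 0.16 for ID2, 0.79 ± 0.18 for ID3 and 0.68 ± 0.18 for ID4 (DESeq2 adjusted p = 0.00787, 0.000315 and 0.00202). ID1 had a log2 fold change of 0.45 ± 0.17 and did not pass the test (DESeq2 adjusted p = 0.0738). With the GC correction in DESeq2 it passed (log2 fold change 0.52, adjusted p = 0.00706), whereas edgeR's quasi-likelihood test gave an adjusted p of 0.0571. TGFBI, a matrix protein induced by TGF-beta, went the other way, with 1584 normalized counts in parental cells, 2765 and 2822 in clone 3, and 1647 and 1769 in clone 4. Clone 4 stood near the parental level and clone 3 above it (log2 fold change -0.72 ± 0.18, DESeq2 adjusted p = 0.00130).

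**Figure D3:**
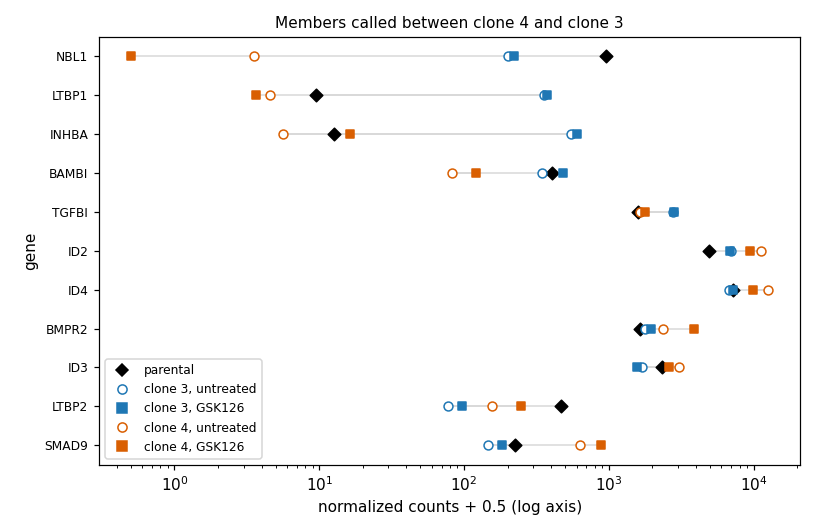
Normalized counts (plus 0.5, log axis) of the 11 members called between clone 4 and clone 3, in order of their log2 fold change; diamonds are parental cells, open symbols untreated and filled squares GSK126-treated libraries, clone 3 in blue and clone 4 in orange. These genes were chosen by the test between these same libraries, so a gap between the clones follows largely from that choice. The gap is widest for NBL1 (log2 fold change -7.62), LTBP1 (-6.67) and INHBA (-5.85).

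All 11 members called between the clones were also called by edgeR's quasi-likelihood test (14.9% of all genes called) and after GC correction (10.9%). Each of these alternatives called 12 members, since edgeR added INHBB and the GC correction added ID1. Each clone had only 2 libraries. Leaving out either library of clone 3 lowered the number of members called and also the number called among all genes, so the fall was not particular to the members. INHBA, LTBP1, BAMBI and SMAD9 were called whichever library was left out. Without untreated clone 3 the DESeq2 adjusted p was 0.206 for NBL1, 0.337 for BMPR2, 0.401 for LTBP2, 0.191 for ID2, 0.144 for ID4 and 0.0602 for TGFBI. Without treated clone 3 the DESeq2 adjusted p of NBL1, BMPR2, LTBP2, ID2, ID3, ID4 and TGFBI lay between 0.0718 and 0.262. Leaving out treated clone 4 ended the calls of BMPR2 and LTBP2 (DESeq2 adjusted p = 0.221 and 0.308).

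The third comparison asked whether GSK126 changed these genes within EIR cells. DESeq2 called 0 of 46 members and 0.00335% of all 29847 genes tested, which is 1 gene, and 1 member had an unadjusted p under 0.05. EdgeR's quasi-likelihood test called 0 of 44 members, again with 1 member at an unadjusted p under 0.05. When the clone number entered as a replicate block, DESeq2 called 0 members (2 at an unadjusted p under 0.05) and 4 genes in all (0.0134%), and edgeR 0 members (8 at an unadjusted p under 0.05). The member with an unadjusted p under 0.05 in DESeq2 was BMP2 (log2 fold change 0.96 ± 0.45, adjusted p = 1), named here after its values were seen. Its normalized counts in untreated and treated cells were 60.2 and 116 in clone 3, and 61.0 and 122 in clone 4. The log2 ratio of treated to untreated cells was thus 0.94 in clone 3 and 0.99 in clone 4. For INHBA the fitted log2 difference between treated and untreated cells was 0.16 ± 2.60 without the block and 0.51 with it.

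Levels of different genes were compared per kilobase of annotated transcript. Among the ligand genes, TGFB1 was the most abundant in parental cells, at 261 normalized counts per kilobase, followed by BMP4 at 186. INHBA, at 2.0 in parental cells, reached 89.9 and 100 per kilobase in untreated and treated clone 3, below TGFB1 and BMP4 in the same libraries. Among the receptors, BMPR1A was the most abundant in parental cells (618 per kilobase) and TGFBR1 the next (360), whereas BMPR1B remained the least abundant receptor in every library, at 12.2 to 19.5 in EIR cells. Of the SMADs, SMAD3 led in parental cells (493 per kilobase) and SMAD5 in all EIR libraries (582 to 668). The annotated SMAD2 transcript of 34626 bases makes its level per length uncertain, and SMAD2 was left out of this order. ID1 was the most abundant member per length in parental cells (5332) and ID2 in every EIR library (5316 to 8721).

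The 18 members not named by a call or by the fixed list comprised 12 that averaged at least 100 normalized counts and 6 below. In the former (BMP4, TGFBR3, BMPR1A, ACVR1, ACVR1B, ACVR2A, SMAD1, SMAD6, SMURF1, SMURF2, SKI and ID1), fitted log2 fold changes ranged from -0.57 to 0.46 for EIR against parental cells and from -0.20 to 0.64 for clone 4 against clone 3. The 6 below that level were TGFB2, TGFB3, BMP6, INHBB, GREM1 and NOG. GREM1, a secreted BMP antagonist, was at 0 in parental cells and in clone 4 and had 3 counts in each clone 3 library, which is within the floor of 3 counts, so no fold is given for it. INHBB, which encodes the subunit of activin B, had 8.06 normalized counts in parental cells, 14.8 and 23.7 in clone 3, and 45.8 and 75.1 in clone 4 (log2 fold change of clone 4 against clone 3 1.64 ± 0.74, DESeq2 adjusted p = 0.175). INHBA was low both in clone 4 (5.09 and 15.9 normalized counts) and in parental cells (12.1), and parental cells had the lowest INHBB value.

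The pathway holds further genes beyond the members, and a list of 104 was drawn up by role, of which 98 were in the table. This list too was chosen with earlier results of these data known. DESeq2 tested 72 against parental cells and called 26 (36.1%), 17 higher and 9 lower, beside 25.5% of all genes. Between the clones it called 19 of 76 (25%), 5 higher and 14 lower in clone 4, beside 9.83% of all genes. For treated against untreated cells, in the fit without the replicate block, it called 0 of 98 (0 by edgeR, and 2 at an unadjusted p under 0.05 in DESeq2). These 2 were PMEPA1 and NEO1, named after their values were seen (log2 fold change 0.74 ± 0.22 and 0.84 ± 0.38, DESeq2 unadjusted p = 0.000639 and 0.0260). PMEPA1 had 706 normalized counts in untreated and 1170 in treated clone 3, and 662 and 1139 in clone 4. The fit with the block is not given for this list. In EIR against parental cells, edgeR called 16 genes of this list and the GC-corrected fit 21, beside 11.1% and 19.4% of all genes. Between the clones they called 24 and 21, beside 14.9% and 10.9% of all genes.

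Of 11 genes tested that act in ligand activation, 2 were higher and 2 lower in EIR than in parental cells, beside 12.4% and 13.2% of all genes. THBS1, which encodes the thrombospondin that can release TGF-beta from its latent complex, had 1440.3 normalized counts in parental cells, 35716 and 38935 in untreated and treated clone 3, and 14174 and 18893 in clone 4. All EIR libraries were above parental cells and clone 3 was above clone 4. The log2 fold change was 4.22 ± 0.55 for EIR against parental cells and -1.19 ± 0.16 for clone 4 against clone 3 (DESeq2 adjusted p = 1.67e-12 and 1.45e-11). FURIN, the proprotein convertase that cleaves the TGF-beta precursor, had 1453 normalized counts in parental cells and 415 ± 52.0 in EIR cells (SD over the 4 libraries of 2 clones). BMP1, a metalloproteinase that cleaves LTBPs and procollagen, had 1056 and 462 ± 9.78. Both fell in EIR cells, with log2 fold changes of -1.81 ± 0.25 and -1.19 ± 0.18 (DESeq2 adjusted p = 3.84e-11 and 1.73e-09). With the GC correction in DESeq2 these were smaller, at -1.36 and -0.77 (adjusted p = 3.23e-07 and 0.000519). Between the clones, 7 of 11 genes of this role were lower in clone 4 and 0 higher, beside 6.52% and 3.31% of all genes. TLL1, a relative of BMP1, had 128 normalized counts in parental cells, 833 and 887 in clone 3, and 166 and 161 in clone 4. ITGB6 and ITGB8, beta subunits of integrins that activate TGF-beta, had 528 and 18676 normalized counts in untreated clone 3 against 178 and 7927 in untreated clone 4, and 713 and 19274 in treated clone 3 against 164 and 7559 in treated clone 4. For these 3 genes clone 3 lay above both clone 4 and parental cells. The log2 fold changes of clone 4 against clone 3 were -2.40 for TLL1, -1.85 for ITGB6 and -1.30 for ITGB8 (DESeq2 adjusted p = 1.87e-18, 9.14e-09 and 1.76e-14).

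**Figure D4:**
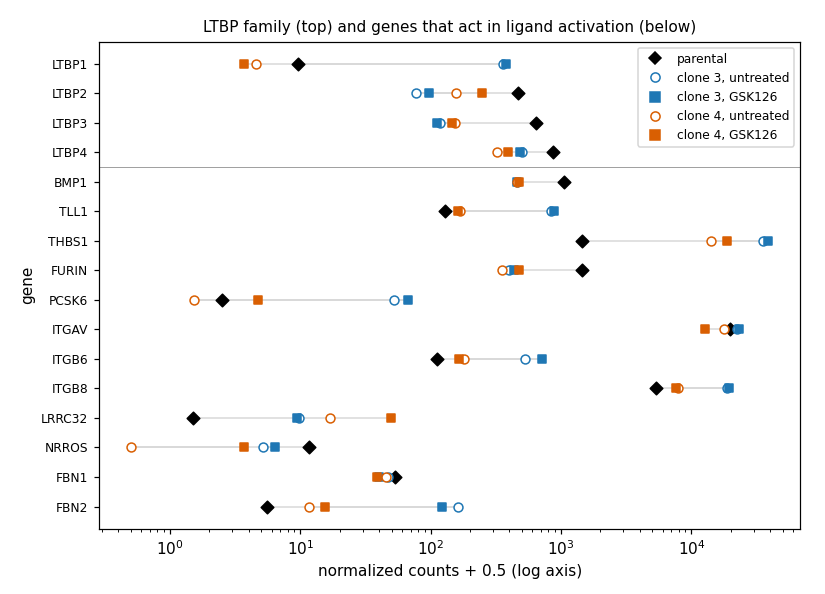
Normalized counts (plus 0.5, log axis) of the LTBP genes (above the line) and of 12 genes that act in ligand activation (below it) in each library; diamonds are parental cells, open symbols untreated and filled squares GSK126-treated libraries, clone 3 in blue and clone 4 in orange. LTBP1, TLL1, PCSK6, ITGB6, ITGB8 and FBN2 reach their highest values in the blue clone 3 libraries, while BMP1 and FURIN lie to the left of the parental diamond in all EIR libraries.

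Targets named for TGF-beta included 8 genes higher and 1 lower of 15 tested in EIR cells, beside 12.4% higher and 13.2% lower over all genes. In clone 4 against clone 3, 2 were higher and 4 lower of 15, beside 3.31% and 6.52% of all genes. CDH2, the gene of N-cadherin, had 17.1 normalized counts in parental cells, 1835 and 2065 in untreated and treated clone 3, and 1181 and 1242 in clone 4. Its log2 fold change against parental cells was 6.53 ± 0.52 (DESeq2 adjusted p = 2.04e-33). FN1, which encodes the matrix protein fibronectin, went from 10.1 to 125 ± 36.9 in EIR cells (SD over the 4 libraries of 2 clones). CCN2, a matricellular protein, went from 133 to 533 and 488 in untreated and treated clone 3, and to 825 and 1075 in clone 4. Their log2 fold changes against parental cells were 3.63 ± 0.68 and 2.46 ± 0.50 (DESeq2 adjusted p = 2.29e-06 and 1.61e-05). All 3 rose in each EIR library and passed the test after GC correction and by edgeR. Between the clones, ADAM19, a membrane metalloproteinase, had 46.3 normalized counts in parental cells, 297 and 359.7 in untreated and treated clone 3, and 0 and 1.06 in clone 4, where it was at the floor. ANGPTL4 was higher and JUNB lower in clone 4 (log2 fold change 1.5 ± 0.31 and -1.13 ± 0.29, DESeq2 adjusted p = 4.05e-05 and 0.00164). Several of these targets are also induced by other pathways.

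Targets named for BMP comprised 2 higher and 1 lower of 7 tested against parental cells, beside 12.4% and 13.2% of all genes. ATOH8, a basic helix-loop-helix factor, had 2.01 normalized counts in parental cells, within the floor of 3 counts, and between 20.4 and 87.5 in EIR cells (DESeq2 adjusted p = 0.0045). HEY1, a transcriptional repressor, had 9.06 in parental cells and between 21.4 and 81.0 in the EIR libraries, a log2 rise of 2.48 ± 0.99 by DESeq2 (adjusted p = 0.0498, or 0.0576 after GC correction). Both averaged under 100 normalized counts, were named after their values were seen, and were not called by edgeR (adjusted p = 0.0743 and 0.156). DLX5, a homeobox gene, fell from 637 normalized counts in parental cells to 125 ± 54.8 in EIR cells (SD over the 4 libraries of 2 clones). Its log2 fold change was -2.35 ± 0.60 (DESeq2 adjusted p = 0.000943). Between the clones, 2 of 8 were higher and 1 lower in clone 4, beside 3.31% and 6.52% of all genes. MSX2, a homeobox gene induced by BMPs, had 2189.6 normalized counts in parental cells, 645 and 851 in clone 3, and 1994 and 2186 in clone 4. Clone 4 was thus near the parental level and clone 3 below it (log2 fold change of clone 4 against clone 3 1.49 ± 0.20, DESeq2 adjusted p = 7.12e-12). GATA2 was also higher in clone 4 (0.98 ± 0.30, DESeq2 adjusted p = 0.0163). Of 16 SMAD partners and regulators, 4 were higher and 3 lower in EIR cells, beside 12.4% and 13.2% of all genes, and 0 were called between the clones by DESeq2 (0 by edgeR, and 6 at an unadjusted p under 0.05). Against parental cells, edgeR called 4 genes of this role and the GC-corrected fit 4, beside 11.1% and 19.4% of all genes. USP15, a deubiquitinase of the type I receptor and SMADs, and WWP1, a ubiquitin ligase, rose by 1.31 and 1.19 on the log2 scale (DESeq2 adjusted p = 1.92e-07 and 7.95e-05). With the GC correction in DESeq2 their rises were 0.85 and 0.79 (adjusted p = 1.56e-05 and 0.0225). TGIF2, a co-repressor of SMADs, fell by 1.67 (DESeq2 adjusted p = 3e-07), and its log2 fold change after GC correction was -1.46.

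Of 6 extracellular antagonists tested, 1 was higher and 1 lower in EIR cells, beside 12.4% and 13.2% of all genes. SOSTDC1, a BMP and WNT antagonist, had 2.01 normalized counts in parental cells, 78.7 and 124 in untreated and treated clone 3, and 153 and 121 in untreated and treated clone 4 (DESeq2 adjusted p = 4.24e-06). Its parental level is within the floor of 3 counts, so its fold is not given, and it averaged under 100 normalized counts and was named after its values were seen. FSTL1, a secreted follistatin-like protein, fell from 20019.7 normalized counts in parental cells to 8712 ± 1271 in EIR cells (SD over the 4 libraries of 2 clones). Its log2 fold change was -1.20 ± 0.25 (DESeq2 adjusted p = 3.14e-05). TAB1, a partner of the kinase TAK1, fell as well (-1.01 ± 0.26, DESeq2 adjusted p = 0.00110), but not past the threshold after GC correction (adjusted p = 0.0595). CD109, a co-receptor that inhibits TGF-beta signalling, was higher in clone 4 than in clone 3 (0.75 ± 0.20, DESeq2 adjusted p = 0.00376). Of the further ligands, 0 of 7 were called against parental cells by DESeq2 (0 by edgeR, and 0 at an unadjusted p under 0.05). Between the clones, 2 of 9 were lower in clone 4 and 0 higher, beside 6.52% and 3.31% of all genes.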

How the data were processed

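Total RNA from TOV21G cells was sequenced by the authors as paired-end reads from stranded total RNA libraries (5 libraries: 1 parental, 4 EIR). Reads were aligned with bowtie2 to hg19 and counted with RSEM on an Ensembl annotation, and the strand setting was not stated. RSEM 1.2.3 is the version in the submitters' processing notes, and another version stands in the study's methods. The values the authors deposited are estimated counts (RSEM expected counts), rounded to whole numbers, not normalized, for 30476 genes. They were used as they stood. RSEM divides reads that fit overlapping genes by estimation.

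Symbols, positions, lengths and GC content came from GENCODE release 44 on GRCh37, which matched 95.8% of identifiers. The 1273 others held 3.06% of counts. Promoters came from RefSeq (GRCh38.p14), found for 43 of the 47 members. Members and lists were chosen with earlier results of these data known.

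Each comparison was fitted across all genes by DESeq2 (version 1.42.0, R 4.3.3) with its default size factors and unshrunken two-sided Wald statistics, and p-values were adjusted after Benjamini and Hochberg at a threshold of 0.05. Alternatives were edgeR 4.0.16 (quasi-likelihood test, TMM), other scalings, a filter of at least 10 counts in at least 2 libraries, a GC correction (lowess with span 0.3), leaving out each EIR library, summed clones, treatment as covariate, each treatment alone and, for treated against untreated cells, the clone number as replicate block. The same clone stands behind each number, and the deviations of same-numbered libraries from their group means correlated at 0.86 over 11564 genes, so the numbers pair the libraries. Members past the threshold in any comparison, SMAD2, SMAD3, SMAD4, TGFB1, TGFBR1 and TGFBR2 are given in every library. Of the wider list, at most 3 per role and comparison are given, those with the largest changes and a mean of at least 100 normalized counts, with THBS1 repeated. SOSTDC1, ATOH8 and HEY1, below that mean, and PMEPA1 and NEO1, not called, were named after their values were seen. Ratios of low counts have exact 95% intervals, which cover counting error only, since PCR reads without molecular identifiers are not independent molecules. The floor was 3 counts. The ratios of BMPR1B and NBL1 rest on counts within it and are given with their intervals. A few markers on the lists were not analysed here.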

Additional observations from a re-analysis of the deposited data

Results flagged for a closer look

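SKI, a co-repressor of SMADs, stood apart in GSK126-treated clone 4, with 869.6 normalized counts against 343, 368 and 383 in the other EIR libraries and 511 in parental cells. By Dixon's criterion for 4 samples this gap was beyond the 95% critical value, which chance exceeds in about 1 of 20 groups, and 46 members were examined.

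For 11 members the level differed between clone 4 and clone 3 by the DESeq2 test of clone 4 against clone 3. The log2 differences were -7.62 for NBL1, -6.67 for LTBP1, -5.85 for INHBA, -2.03 for BAMBI, -0.72 for TGFBI, 0.57 for ID2, 0.68 for ID4, 0.68 for BMPR2, 0.79 for ID3, 1.19 for LTBP2 and 2.17 for SMAD9. The cause of the differences was not tested.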

How the results depend on the processing

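The 29 fold changes given for named members had 344 values under alternative settings, of which 335 kept their direction. For called members, 0 of 266 alternative values reversed and 215 remained past the threshold. In EIR against parental cells 4157 genes were called, against 2024 with edgeR, 1914 with the libraries of each clone summed, 1998 with treatment as covariate, 1998 with untreated and 2017 with GSK126-treated EIR cells only. The number of members called was 12, against 7 with edgeR, with treatment as covariate, with untreated and with GSK126-treated EIR cells only, and 11 to 13 when an EIR library was left out. Between clones 1739 genes were called, and 831 to 2800 with a library left out (876 without untreated clone 3, 2800 without untreated clone 4, 831 without GSK126-treated clone 3). The 11 members called became 4 to 14 (4 without GSK126-treated clone 3, 5 without untreated clone 3). For treated against untreated cells 1 gene was called, 0 with edgeR, 4 with the replicate block, 7 with the block and GC correction, and up to 25 with a library left out, with no member among them under any setting. The replicate block changed no call of a member. Uncalled values that changed sign for EIR against parental cells were TGFB1 (0.056), TGFBR1 (-0.13) and SMAD4 (-0.35) under GC correction, SMAD2 under total count scaling (0.012) and with a library left out (-0.14 to 0.00051), and SMAD4 with treatment as covariate or untreated cells only (-0.0025) and with a library left out (-0.040 to 0.076). The causes were not tested. Counts of 2 in parental cells for BMPR1B and 3 in clone 4 for NBL1 limit the precision of their ratios.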

Other observations

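A few members varied between libraries without a call. TGFB2, the TGF-beta isoform of embryonic and ocular tissue, had 36.3 normalized counts in parental cells and between 3.95 and 21.4 in EIR cells. NOG, which encodes the BMP antagonist noggin, had 17.1 in parental cells and between 31.5 and 87.0 in EIR cells. For BMP4, a ligand of the same receptors as BMP2, the parental value of 359 lay above the EIR range of 217 to 276 (DESeq2 adjusted p = 0.121).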
